A study of Homo sapiens with 12 samples.

Results

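The genes described here are 38 markers of the cell cycle and of DNA replication. The rule takes them by name and uses no measured value, but the list was drawn up with earlier results of these data known. All 38 had a probe set of their own on the arrays, among 18377 genes tested. They fall into 20 genes that act from G1 into S phase (MCM2, MCM3, MCM4, MCM5, MCM6, MCM7, MCM10, CDC6, CDT1, CDC45, GINS2, PCNA, RRM2, TYMS, UHRF1, E2F1, MYBL2, CCND1, CCNE1 and CCNE2) and 18 that act in G2 and mitosis (MKI67, TOP2A, CCNA2, CCNB1, CCNB2, CDK1, BUB1, BUB1B, TTK, AURKA, AURKB, PLK1, CDC20, FOXM1, BIRC5, KIF11, KIF20A and CENPF). UHRF1 and BIRC5 had a second transcript cluster, and the brighter one was used for each.

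Growth factor signals, carried in part by PI3K and its effector AKT, raise the level of D-type cyclins, and cyclin-dependent kinases then inactivate the retinoblastoma proteins and free the E2F factors that switch on replication genes. Later in the cycle MYBL2 (B-MYB) and FOXM1, on promoters that carry the element called CHR, switch on the mitotic genes. Lack of serum withdraws the growth factors at the start of this chain, and the inhibitors CDKN1A (p21) and CDKN1B (p27) hold its kinases back.

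The samples are HCT116 and DLD1, established human colorectal cancer lines in which one copy of a PI3K catalytic subunit gene is mutated and active. Either copy had been knocked out by gene targeting, and the series was made to look for regulators of tumour growth and spread under low serum. HCT116 cells kept either the H1047R allele (HCT116 mutant-only) or the wild-type allele (HCT116 wild-type-only), and DLD1 cells kept either the E545K allele (DLD1 mutant-only) or the wild-type allele (DLD1 wild-type-only). All 4 groups were held in 0.5% serum for 19 h before RNA was taken, so no group in full serum is compared here. Each group has 3 Affymetrix human gene arrays, 12 in all, which the labels call biological replicates. Nothing in the labels says how separate the cultures were, so p-values measure the spread between these arrays. Each genotype of a line is 1 derived line, and differences of genotype and differences between derived lines cannot be told apart.

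Levels are the deposited log2 values, and every difference is on the same log2 scale. A gene was called when its adjusted p (limma, Benjamini-Hochberg over all genes) was under 0.05. Array medians over the tested genes lay between 8.07 and 8.14. The members were bright: the lowest mean level of a member over the 12 arrays was 9.01, against a median of 8.12 over all genes. The epithelial markers EPCAM, KRT8, KRT18 and CDH1 had mean levels of 10.8 to 13.5 in the 4 groups. CDX2 lay at 8.78 to 10.5, and VIL1, a brush border protein, was dim at 6.51 to 6.99. The fibroblast genes COL1A1, COL1A2, COL3A1 and PDGFRB lay at 6.96 to 8.76. In HCT116 COL1A1 (8.76 and 8.64) was about as bright as CDX2 (8.78 and 8.87). The leukocyte genes PTPRC, CD3E and CD14 lay at 5.01 to 7.13 and the endothelial genes PECAM1, CDH5 and VWF at 5.64 to 6.84, so CD14 was about as bright as VIL1. In these bulk samples, fewer cells in a phase of the cycle and less RNA per cell cannot be told apart.

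Promoters of 12 members are printed here because the classes differ in the elements that their promoters carry. They are examples of each class and include the members called between genotypes and the member that was higher in HCT116. Each sequence is the 120 bases before the RefSeq start of the gene (GRCh38.p14), read 5′ to 3′ on the strand of the gene. Capitals mark 3 kinds of match on either strand: the E2F core (TTCCCGC or TTGGCGC, in reverse GCGGGAA or GCGCCAA), the CHR core (TTTGAA or TTTAAA, in reverse TTCAAA) and the CCAAT box (in reverse ATTGG). The first set holds G1/S members that were lower in HCT116, namely parts of the replicative helicase and E2F1.
MCM3, chr6:52284743-52284862, minus strand: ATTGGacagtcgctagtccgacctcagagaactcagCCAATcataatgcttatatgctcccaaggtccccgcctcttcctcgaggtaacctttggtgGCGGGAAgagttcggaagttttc
MCM6, chr2:135876444-135876563, minus strand: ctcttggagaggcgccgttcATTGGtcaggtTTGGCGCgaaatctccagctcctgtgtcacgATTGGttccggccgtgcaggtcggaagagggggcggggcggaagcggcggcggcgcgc
GINS2, chr16:85688955-85689074, minus strand: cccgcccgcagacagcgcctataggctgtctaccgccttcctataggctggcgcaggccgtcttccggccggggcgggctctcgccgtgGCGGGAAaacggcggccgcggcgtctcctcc
E2F1, chr20:33686386-33686505, minus strand: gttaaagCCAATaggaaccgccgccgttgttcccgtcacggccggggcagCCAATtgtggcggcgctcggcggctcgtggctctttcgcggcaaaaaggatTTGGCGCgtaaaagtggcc
The next set holds CDT1, the member that was higher in HCT116, and MYBL2 and CCNE1, the members called between genotypes. The 120 bases of MYBL2 hold no exact match to these letters, and variants of the elements were not searched.
CDT1, chr16:88803669-88803788, plus strand: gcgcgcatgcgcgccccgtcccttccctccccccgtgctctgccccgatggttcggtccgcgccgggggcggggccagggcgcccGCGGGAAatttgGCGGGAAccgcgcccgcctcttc
MYBL2, chr20:43666994-43667113, plus strand: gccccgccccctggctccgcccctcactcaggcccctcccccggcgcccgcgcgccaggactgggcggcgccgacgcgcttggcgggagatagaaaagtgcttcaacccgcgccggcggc
CCNE1, chr19:29811871-29811990, plus strand: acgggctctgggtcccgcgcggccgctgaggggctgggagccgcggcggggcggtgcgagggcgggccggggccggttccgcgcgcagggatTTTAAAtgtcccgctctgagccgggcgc
The last set holds G2/M members. PLK1 and CDC20 did not pass between the lines in either genotype, and KIF11, MKI67 and CCNB2 passed in both.
KIF11, chr10:92593010-92593129, plus strand: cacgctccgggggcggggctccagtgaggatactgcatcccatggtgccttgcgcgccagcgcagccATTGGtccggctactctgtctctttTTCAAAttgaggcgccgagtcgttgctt
MKI67, chr10:128126424-128126543, minus strand: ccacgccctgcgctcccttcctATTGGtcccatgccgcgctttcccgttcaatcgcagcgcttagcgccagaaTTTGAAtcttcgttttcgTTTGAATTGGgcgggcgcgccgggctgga
CCNB2, chr15:59105026-59105145, plus strand: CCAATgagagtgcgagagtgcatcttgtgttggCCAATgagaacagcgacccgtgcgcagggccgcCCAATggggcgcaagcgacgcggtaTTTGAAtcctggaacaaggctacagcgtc
PLK1, chr16:23678769-23678888, plus strand: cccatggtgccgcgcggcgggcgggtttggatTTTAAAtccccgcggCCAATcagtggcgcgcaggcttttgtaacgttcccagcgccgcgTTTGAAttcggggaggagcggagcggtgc
CDC20, chr1:43358861-43358980, plus strand: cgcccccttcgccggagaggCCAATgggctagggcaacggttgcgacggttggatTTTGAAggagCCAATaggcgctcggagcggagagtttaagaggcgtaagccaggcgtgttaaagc

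The last base of a CHR core lies at position -24 in CCNB2, PLK1 and MKI67, and at -23 in KIF11 and in the G1/S member CCNE1. In CDC20 it lies at -60. In MKI67 the CHR core and a reversed CCAAT box share 1 base. The E2F cores of MCM3 and CDT1 end at position -17, that of GINS2 at -25, that of E2F1 at -13 and the nearer one of MCM6 at -83.

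Over the whole RefSeq window, which runs from 250 bases before the start to 50 after it, 16 of the 20 G1/S members and 14 of the 18 G2/M members had a sequence. CCND1, MCM4, MCM5, CCNE2, BIRC5, TTK, AURKA and FOXM1 had none in the table used. The E2F core was present in 11 of the 16 G1/S windows (68.8%) and in 1 of the 14 G2/M windows, that of CDK1 (7.14%). The CHR core showed the opposite split, with 3 of 16 G1/S windows (18.8%; CDC45, RRM2 and CCNE1) and 11 of 14 G2/M windows (78.6%). The CCAAT box was found in 11 of 16 and in 13 of 14 members, with BUB1B as the G2/M member that lacked it. A gene with several RefSeq starts was counted once, over all its windows. Among 14208 genes of the array with a window, 15.2% held the E2F core, 24.3% the CHR core and 42.2% the CCAAT box. RRM2 was the G1/S gene with both cores, at separate starts, and MCM2, MCM10 and MYBL2 had neither. A match shows the letters alone and does not show that a factor binds there. Only these exact letters were searched, so a gene without a match may still carry a variant of the element.

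To put genes of different brightness together, each gene was centred on its mean over the 12 arrays before class means were taken. In HCT116 the arrays numbered 1 of both genotypes stood apart in the G2/M members, at -0.59 (wild-type-only) and -0.53 (mutant-only). The other 4 HCT116 arrays lay between -0.32 and -0.04. Replicate 1 was the lowest of 3 in both HCT116 groups for 17 of 18 G2/M members, CDC20 being the exception. The same was true of 3 of 20 G1/S members (MCM2, MCM7 and TYMS) and of 14.3% of all genes.

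For TTK, a spindle checkpoint kinase, the HCT116 wild-type-only arrays read 9.40, 10.31 and 9.55 in order of replicate number, and the mutant-only arrays 9.59, 10.16 and 9.74. The microtubule motor KIF20A read 10.35, 10.71 and 10.48, and then 10.21, 10.73 and 10.96. Replicate 1 was the low array in all 4 of these groups of values. The median difference between replicate 1 and the mean of the other HCT116 arrays was -0.44 over the G2/M members, -0.07 over the G1/S members and -0.01 over all genes. The median SD of a G2/M member was 0.240 and 0.275 in the wild-type-only and mutant-only HCT116 groups, against 0.0810 and 0.0836 in the DLD1 groups. G2/M members are therefore measured less precisely in HCT116. Below, their counts of calls between the lines are given with and without replicate 1. So is the amount by which their mean line difference falls short of that of the G1/S members. Differences of single G2/M members between the lines are given with all arrays. This pattern was noticed in the data, and its source was not tested.

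The first comparison set the G1/S members beside the G2/M members across the 4 groups. Both classes were lower in HCT116 than in DLD1, whichever allele the cells kept, and the difference between genotypes was within the SD of the arrays for both classes in HCT116 but exceeded it in DLD1. On the centred scale the G1/S members averaged -0.46 ± 0.08 in HCT116 wild-type-only cells and -0.40 ± 0.08 in HCT116 mutant-only cells (SD, n = 3). They averaged 0.40 ± 0.03 in DLD1 wild-type-only cells and 0.46 ± 0.04 in DLD1 mutant-only cells (SD, n = 3). The G2/M members averaged -0.34 ± 0.25 and -0.25 ± 0.25 in the wild-type-only and mutant-only HCT116 cells, and 0.24 ± 0.05 and 0.34 ± 0.05 in the DLD1 cells (SD, n = 3). The mean difference between the lines was larger for the G1/S than for the G2/M members, by -0.28 in wild-type-only and by -0.27 in mutant-only cells. When each array was left out in turn, these values lay between -0.37 and -0.19 and between -0.43 and -0.19. Without HCT116 replicate 1 of both genotypes they were -0.37 and -0.43. No test was made on these class means, since the members were chosen as a group.

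**Figure D1:**
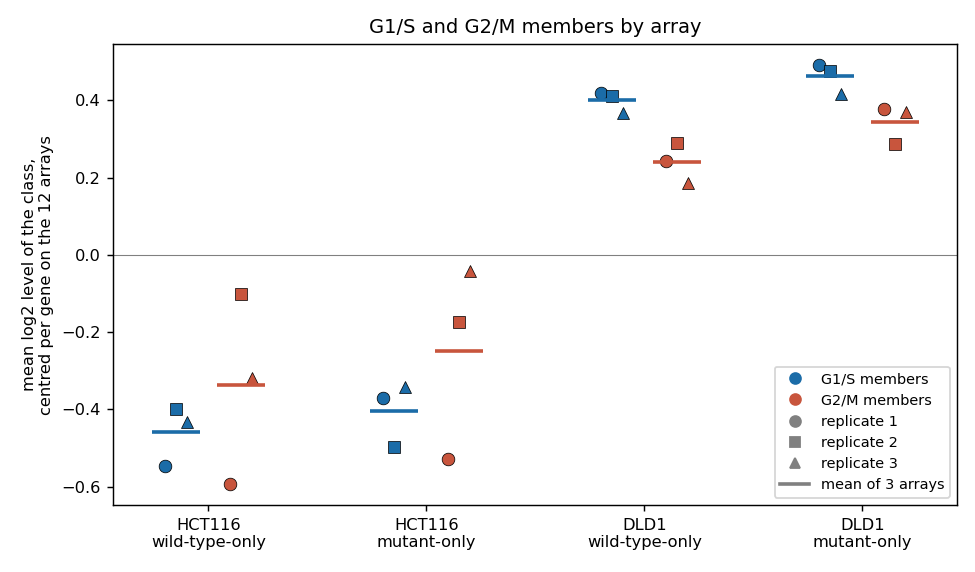
Mean log2 level of the 20 G1/S and of the 18 G2/M members in each array, each gene centred on its mean over the 12 arrays (y axis), by group (x axis); each point is 1 array and its shape gives the replicate number. All 6 HCT116 arrays lie below all 6 DLD1 arrays in both classes, and the G2/M points of HCT116 replicate 1 (-0.59 and -0.53) lie below the other HCT116 arrays.

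**Figure D2:**
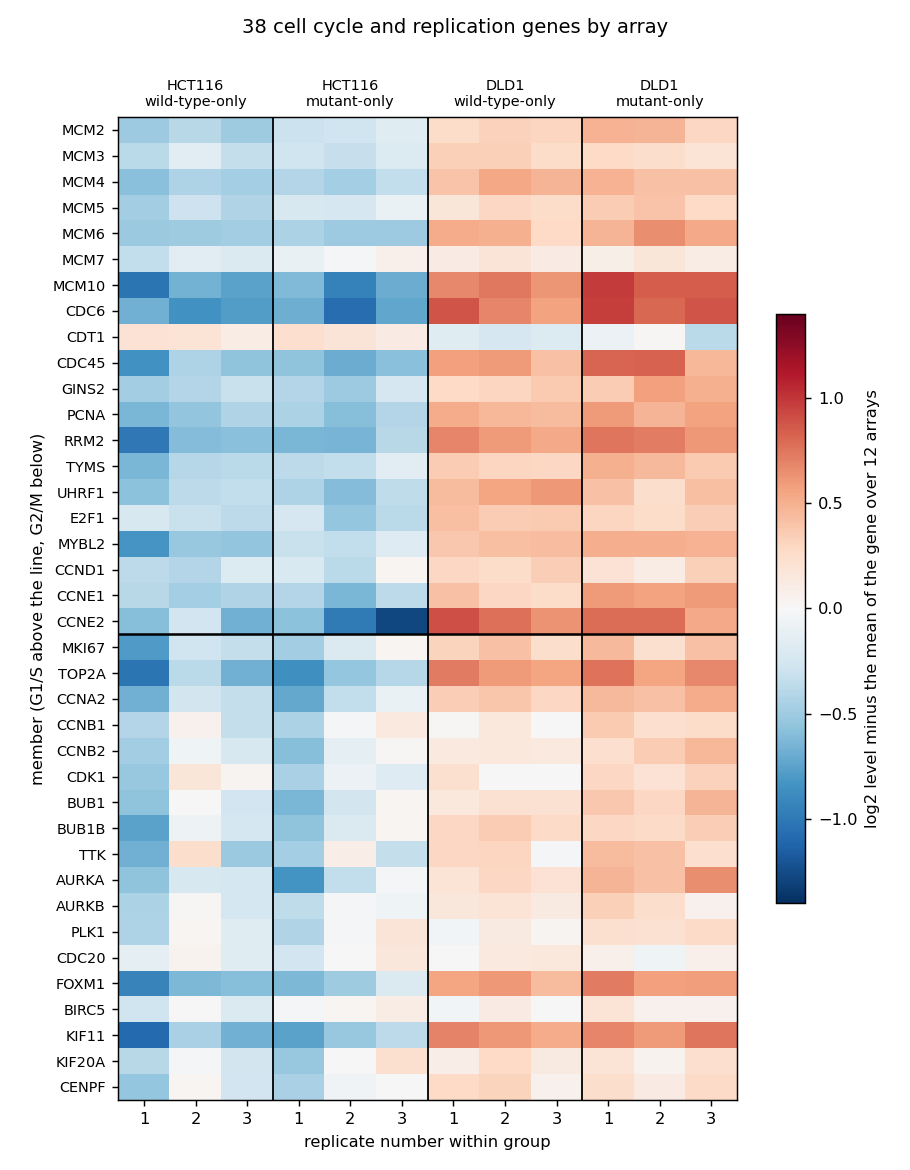
Log2 level of each of the 38 members (rows) in each of the 12 arrays (columns), minus the mean of the gene over all arrays, as colour; G1/S members are above and G2/M members below. The mean of the 6 HCT116 arrays is below that of the 6 DLD1 arrays for all members but CDT1, and the column of replicate 1 is the lowest of each HCT116 group for 17 of 18 G2/M members.

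The second comparison was HCT116 against DLD1 among cells that kept the wild-type allele. Of the 38 members 33 were lower in HCT116 and 1, CDT1, was higher. Of all genes 25.5% were called lower, 23.3% higher and 48.8% in either direction. The median difference was -0.70 over the members and 0.00 over all genes. All 20 G1/S members were called, 19 of them lower, with a median difference of -0.86 (1.82-fold). Of the 18 G2/M members 14 were lower, with a median of -0.47 (1.39-fold), and 4 did not pass.

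Among cells that kept the mutant allele, 32 members were lower in HCT116 and CDT1 was again higher (26.3% of all genes lower, 24.3% higher, 50.6% in either direction). The group means here come from the other 6 arrays. The spread is shared over all 12, so the 2 sets of calls are not independent. Of the G1/S members 18 were lower, with a median of -0.83, and of the G2/M members 14, with a median of -0.57. Every HCT116 array was below every DLD1 array for 31 members in wild-type-only cells (28.1% of all genes) and for 34 in mutant-only cells (28.9%). In both comparisons together 30 members were lower each time, 18 G1/S and 12 G2/M, against 21.3% of all genes. Called levels at least 2-fold lower in HCT116 were found for 7 G1/S and 3 G2/M members in wild-type-only cells (4.31% of all genes) and for 8 and 3 in mutant-only cells (4.32%). Across the 38 members the differences of the 2 genotypes correlated by 0.92 (Pearson), which is a description across genes, not across samples.

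The regulators of S phase entry come first. CCND1, the cyclin D1 that growth factor signals induce, was lower in HCT116 by 0.62 in wild-type-only cells (SE 0.0937, adjusted p = 7.04e-05) and by 0.40 in mutant-only cells (adjusted p = 0.00239). E2F1, the founding member of the E2F family, differed by -0.68 in each. CCNE1 and CCNE2 encode E-type cyclins, which bring CDK2 into action at the start of S phase. CCNE2 arrays read 9.26, 9.59 and 9.18 in HCT116 and 10.75, 10.62 and 10.48 in DLD1 wild-type-only cells, a difference of -1.28 (SE 0.152, adjusted p = 7.48e-06). In mutant-only cells CCNE2 differed by -1.64, the largest difference but those of CDC6 and MCM10. MYBL2, the B-MYB factor, differed by -1.04 in wild-type-only and by -0.78 in mutant-only cells.

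Origin licensing, in which CDC6 and CDT1 load the MCM2-7 helicase onto DNA, held the member that differed most in mutant-only cells and the member that went the other way. CDC6 read 9.95, 9.77 and 9.83 in HCT116 and 11.49, 11.30 and 11.18 in DLD1 wild-type-only cells. Its arrays did not overlap, and it was 2.78-fold lower (adjusted p = 2.76e-08) there and 3.26-fold lower in mutant-only cells. Its partner CDT1 went the other way. CDT1 read 9.21, 9.20 and 9.12 in HCT116 and 8.84, 8.77 and 8.82 in DLD1 wild-type-only cells, a difference of 0.36 (SE 0.0808, adjusted p = 0.00169). In mutant-only cells the CDT1 difference was 0.33 (adjusted p = 0.00355), from 9.25, 9.19 and 9.13 against 8.92, 9.02 and 8.64.

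The helicase subunits MCM2 to MCM7 did not all differ by the same amount. MCM4 (-0.97) and MCM6 (-0.93) differed most in wild-type-only cells, and MCM7 least (-0.37, adjusted p = 0.000182). In mutant-only cells MCM6 differed by -1.04, and MCM7 by -0.14 without passing the test (adjusted p = 0.0884). The MCM7 arrays of the mutant-only cells read 11.56, 11.65 and 11.74 in HCT116 and 11.75, 11.84 and 11.77 in DLD1, so the groups lay side by side without overlap. Whether subunits differ among themselves was not tested.

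Factors that turn the loaded helicase into a fork had large differences. MCM10, which helps the helicase to start, read 8.72, 9.08 and 8.99 in HCT116 and 10.42, 10.47 and 10.36 in DLD1 wild-type-only cells. That is a 2.81-fold lower level in HCT116 (SE 0.0959 on the log2 scale, adjusted p = 1.38e-08), and it was 3.13-fold lower in mutant-only cells. CDC45 differed by -1.14 and -1.32 in wild-type-only and mutant-only cells, and GINS2 by -0.71 and -0.86. Both are parts of the active helicase.

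Genes of the fork and of nucleotide supply were lower too. RRM2, the ribonucleotide reductase subunit that makes deoxynucleotides in S phase, differed by -1.33 and -1.25, and TYMS, which makes thymidylate, by -0.79 and -0.73. PCNA, the sliding clamp, differed by -1.01 and -1.03. UHRF1, which keeps DNA methylation through replication, differed by -0.96 in wild-type-only cells. With the mean of both UHRF1 clusters that difference was -0.49, the second cluster being dim at a mean of 6.97.

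**Figure D3:**
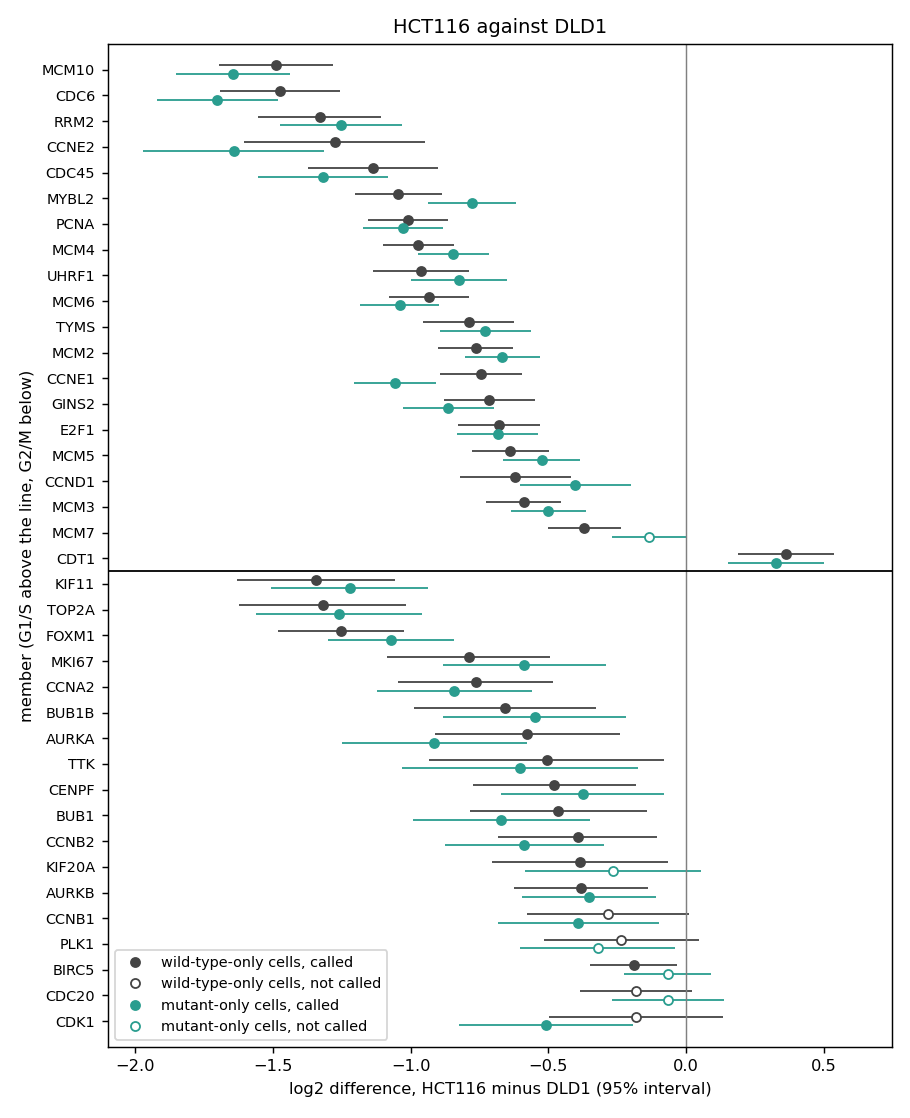
Log2 difference between HCT116 and DLD1 for each member (rows) with its 95% interval (x axis), for wild-type-only and mutant-only cells; filled points were called at an adjusted p under 0.05. Differences run from -1.70 (CDC6, mutant-only) to 0.36 (CDT1, wild-type-only), and the members near 0 are mostly G2/M genes and MCM7.

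The G2/M members ranged from differences as large as those of the replication genes to none that passed the test. KIF11, the motor that pushes spindle poles apart, read 8.93, 9.56 and 9.34 in HCT116 and 10.71, 10.62 and 10.53 in DLD1 wild-type-only cells. The difference was -1.34 (SE 0.133, adjusted p = 1.1e-06) and in mutant-only cells -1.22. TOP2A, which untangles sister DNA, differed by -1.32 and -1.26, and FOXM1, the factor that induces mitotic genes, by -1.25 and -1.07. These 3 were the G2/M members with called differences of at least 2-fold, in both genotypes.

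The kinase that drives mitosis and its cyclins differed less. CDK1 read 9.71, 10.41 and 10.27 in HCT116 and 10.46, 10.24 and 10.23 in DLD1 wild-type-only cells, and the groups overlapped (difference -0.18, adjusted p = 0.352). In mutant-only cells it differed by -0.51 (adjusted p = 0.00955). CCNB1 differed by -0.28 (adjusted p = 0.106) and -0.39 (adjusted p = 0.0270), and CCNB2 by -0.39 and -0.59. CCNA2, the cyclin that acts from S phase into G2, differed by -0.76 and -0.84.

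Among the mitotic kinases, AURKA, which acts at spindle poles, differed by -0.58 and -0.91, and AURKB, of the chromosomal passenger complex, by -0.38 and -0.35. PLK1, the Polo kinase, did not pass in either genotype (-0.24, adjusted p = 0.163, and -0.32, adjusted p = 0.0563). In mutant-only cells it passed in 7 of 21 alternative settings. Spindle checkpoint kinases were lower in HCT116: BUB1 differed by -0.46 and -0.67, BUB1B by -0.66 and -0.55, and TTK by -0.51 (adjusted p = 0.0490) and -0.60. CDC20, which the checkpoint restrains, read 11.55, 11.73 and 11.52 in HCT116 and 11.68, 11.82 and 11.83 in DLD1 wild-type-only cells. It differed by -0.18 and -0.07 and passed in neither genotype (adjusted p = 0.134 and 0.614).

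The remaining mitotic members lay between these. MKI67, the Ki-67 proliferation antigen, differed by -0.79 and -0.59, and the kinetochore protein CENPF by -0.48 and -0.37. KIF20A differed by -0.39 (adjusted p = 0.0454) and -0.26 (adjusted p = 0.164). BIRC5 (survivin) differed by -0.19 (adjusted p = 0.0455) and -0.07 (adjusted p = 0.497).

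The count of G2/M members called between the lines moved more with single arrays than that of G1/S members. Without HCT116 wild-type-only replicate 1 the number of G2/M members lower in wild-type-only cells was 7 in place of 14, and without DLD1 wild-type-only replicate 2 it was 9. Without HCT116 mutant-only replicate 1 the number in mutant-only cells was 9. The wild-type-only calls of TTK, KIF20A and BIRC5 were lost in 12, 12 and 14 of 21 alternative settings. Those of CCNB2, BUB1, AURKB and CENPF were lost in 4, 2, 1 and 1. The mutant-only calls of CCNB1, CENPF, TTK, AURKB and CDK1 were lost in 6, 6, 5, 4 and 1. Calls were also gained. PLK1, MCM7 and KIF20A passed in mutant-only cells in 7, 4 and 2 of the settings, and CCNB1 in wild-type-only cells in 2. With replicate 1 of both HCT116 groups left out, a setting chosen after seeing the data, 12 and 11 G2/M members were lower. With each of the arrays named here left out, 19 G1/S members were lower and 1 higher in wild-type-only cells. In mutant-only cells 18 were lower and 1 higher. Without HCT116 mutant-only replicate 3, 19 G1/S members were lower in mutant-only cells.

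Line identity goes beyond the cell cycle. All 6 epithelial markers were also called lower in HCT116 in both genotypes, with CDH1 at mean levels of 10.8 and 11.1 in HCT116 and 12.7 in both DLD1 groups. The fibroblast marker COL1A1 was higher in HCT116 by 0.38 and 0.39, and 3 of 4 fibroblast markers did not pass. What part such differences between the lines have in the results above was not tested.

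The third comparison asked whether keeping the mutant or the wild-type allele changes these genes in low serum. In HCT116 1 of 38 members was called, MYBL2, which rose, where 6.16% of all genes were called and 4.02% rose. In DLD1 1 of 38 was called, CCNE1, which rose, where 8.77% of all genes were called and 5.66% rose. With limma on all 4 groups no G2/M member was called in either line. There 2 in HCT116 and 0 in DLD1 had an unadjusted p under 0.05. The authors' deposited tables of clusters past a 2-fold cut-off, 35 and 44 clusters long, list none of the 38.

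MYBL2 read 9.34, 9.64 and 9.62 in HCT116 wild-type-only and 9.86, 9.83 and 9.99 in HCT116 mutant-only cells. All mutant-only arrays were above all wild-type-only arrays, and the change was 0.36 (SE 0.0736, 95% interval 0.20 to 0.52, adjusted p = 0.0105), or 1.28-fold. It did not pass when the model held HCT116 arrays only (adjusted p = 0.0673) and without replicate 1 of both HCT116 groups (adjusted p = 0.0569). In DLD1 MYBL2 changed by 0.09 (adjusted p = 0.514).

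CCNE1 read 9.91, 9.79 and 9.75 in DLD1 wild-type-only and 10.10, 10.06 and 10.09 in DLD1 mutant-only cells. The groups did not overlap, and the change was 0.27 (SE 0.0688, 95% interval 0.12 to 0.41, adjusted p = 0.0285), or 1.20-fold. The call was lost after quantile normalization (adjusted p = 0.0934) and without 5 of the 6 DLD1 arrays in turn (adjusted p of 0.0614 to 0.0990). In HCT116 CCNE1 changed by -0.05 (adjusted p = 0.805).

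Other members came near the threshold in HCT116. MCM7 had means of 11.43 and 11.65 (change 0.22, adjusted p = 0.0544), MCM2 changed by 0.22 (adjusted p = 0.0568) and MCM5 by 0.22 (adjusted p = 0.0716). CCNE2 had the largest change of any member in either line with all arrays. It read 9.26, 9.59 and 9.18 in wild-type-only and 9.28, 8.86 and 8.57 in mutant-only HCT116 cells, a change of -0.44 whose groups overlapped (SE 0.152, adjusted p = 0.123). The CCNE2 change was -0.27 without HCT116 mutant-only replicate 3 (adjusted p = 0.356). It was -0.63 without HCT116 mutant-only replicate 1 (adjusted p = 0.0189) and -0.67 without replicate 1 of both HCT116 groups (adjusted p = 0.0367), and passed in both. FOXM1 changed by 0.28 (adjusted p = 0.167).

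Arrays of the same replicate number deviated alike from their group means. Their deviations correlated by 0.129 to 0.462 within a line and by 0.0657 to 0.471 between the lines. With the number as a block within each line, 5 members were called in HCT116: MYBL2, MCM7 (adjusted p = 0.0176), FOXM1 (0.0213), MCM2 (0.0468) and, lower, CCNE2 (0.0370). All genes called rose to 9.84% in that fit. In DLD1 the block left the count at 1.

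Small positive changes were frequent. Of the 38 members 29 had a positive change in HCT116, where 49.5% of all genes had one, and 28 in DLD1, where 47.3% had. The median change was 0.08 in HCT116 and 0.09 in DLD1, against 0.00 and -0.01 over all genes. By class it was 0.04 (G1/S) and 0.10 (G2/M) in HCT116 and 0.09 for each class in DLD1. These genes move together from array to array, so the counts describe these arrays and are not independent evidence.

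The direction was not the same in every numbered pair. In HCT116 the mean change of the G2/M members was 0.07, -0.07 and 0.28 in pairs 1, 2 and 3, and that of the G1/S members 0.17, -0.10 and 0.09. In DLD1 it was 0.13, 0.00 and 0.18 for G2/M and 0.07, 0.06 and 0.05 for G1/S. Pair 2 in HCT116 went against the others in both classes. Without HCT116 wild-type-only replicate 1 the mean G2/M change in HCT116 was -0.04, and without HCT116 mutant-only replicate 3 it was -0.01, against 0.09 with all arrays.

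**Figure D4:**
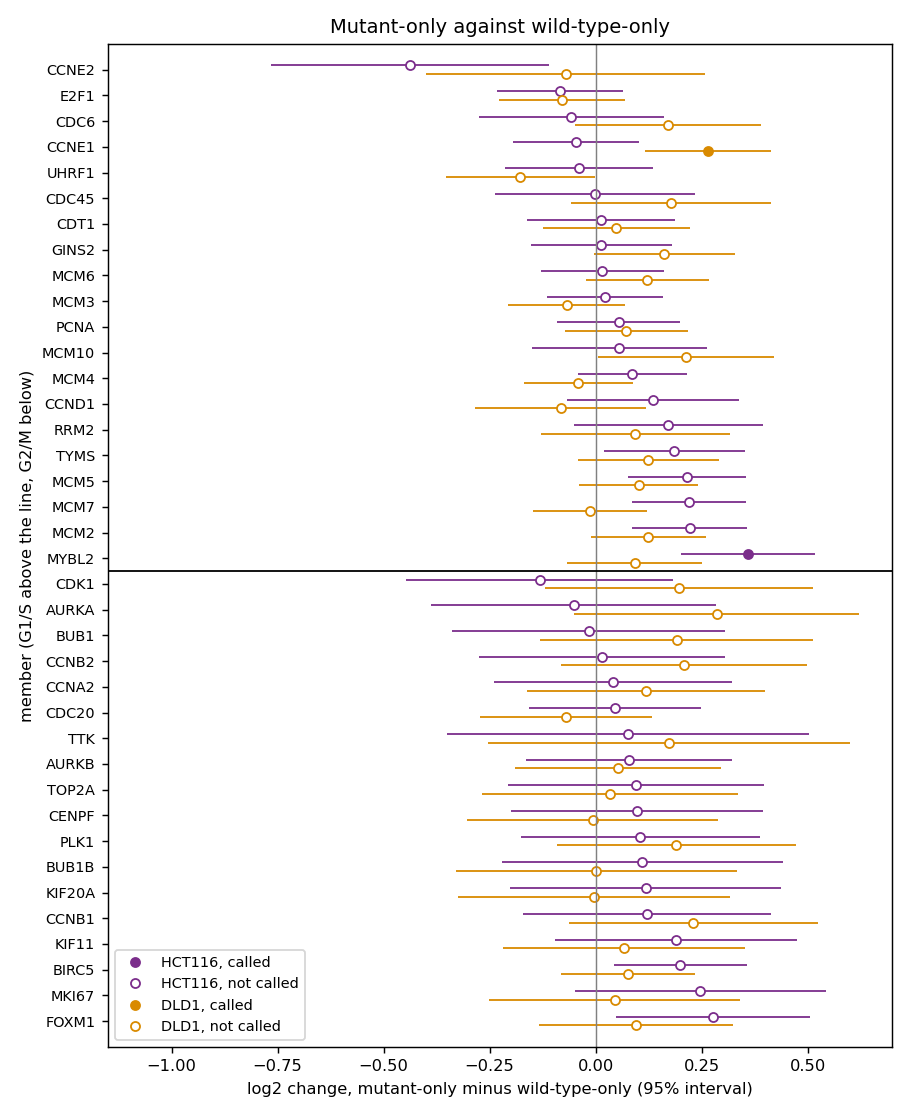
Log2 change from wild-type-only to mutant-only cells for each member (rows) with its 95% interval (x axis), in HCT116 and in DLD1; filled points were called at an adjusted p under 0.05. MYBL2 in HCT116 (0.36) and CCNE1 in DLD1 (0.27) are the filled points, and most other intervals cover 0.

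The intervals rest on the spread in the model, which is 1 value per gene over all 4 groups. The 95% intervals of the members ran from -0.77 to 0.54 in HCT116 and from -0.40 to 0.62 in DLD1. No member's interval from this fit therefore reached a 2-fold change in either line. The G2/M members had larger median SDs in HCT116 (0.240 and 0.275) than in DLD1 (0.0810 and 0.0836). So did CCNE2, with SDs of 0.218 and 0.355 in HCT116 and 0.134 and 0.145 in DLD1. For these genes the HCT116 intervals may be too narrow to bound a change that was missed. Because the spread is shared, their DLD1 intervals may be wider than the DLD1 arrays alone would give. With the DLD1 groups alone in the model 1 G2/M member was called, AURKA, which rose (adjusted p = 0.0377, with 8.27% of all genes called). Groups that did not overlap, all higher in mutant-only cells, were found for 5 members in HCT116 (12.5% of all genes), and none was lower (9.51%). In DLD1 they were higher for 10 members (15.6%), 6 of them G2/M, and lower for 2, UHRF1 and E2F1 (12.7%).

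None of the 38 changes differed between the lines at an adjusted p under 0.05 with limma, where 7.11% of all genes did, and 3 had an unadjusted p under 0.05. These were CCNE1 (difference -0.31, adjusted p = 0.0770), MYBL2 (0.27, adjusted p = 0.164) and MCM7 (0.23, adjusted p = 0.147). CCNE1 passed with the replicate block (adjusted p = 0.0302) and without HCT116 mutant-only replicate 3 (0.0452), and CDK1 passed without HCT116 wild-type-only replicate 1 (0.0400). So MYBL2 was called in HCT116 and CCNE1 in DLD1 with all arrays and no block. In that fit a difference between the lines was not shown for either.

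The regulators upstream of these genes were read from lists of the same pathway. Of 6 measured inhibitors of cyclin-dependent kinases, 2 rose and 1 fell in HCT116 mutant-only cells, where 6.16% of all genes were called and 4.02% rose. CDKN1A (p21) read 9.39, 9.26 and 9.35 in wild-type-only and 10.15, 9.98 and 9.82 in mutant-only HCT116 cells, a change of 0.65 (SE 0.0893, adjusted p = 0.000631). CDKN1B (p27) read 10.03, 10.19 and 10.11 and then 10.41, 10.50 and 10.42 (change 0.34, SE 0.0563, adjusted p = 0.00267). In both genes all mutant-only arrays were above all wild-type-only arrays. In the same cells MYBL2 was the member that passed with all arrays and no block, and it rose. With the replicate block 5 members passed, CCNE2 being the one that fell, and without replicate 1 of both HCT116 groups CCNE2 was the member that passed.

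In DLD1 neither inhibitor passed. CDKN1A changed by -0.11 (adjusted p = 0.529) and CDKN1B by -0.12 (adjusted p = 0.212). The difference between the lines passed for CDKN1A (0.76, adjusted p = 0.00230) and for CDKN1B (0.46, adjusted p = 0.00285). CDKN2B (p15), an inhibitor of CDK4 and CDK6, was lower in mutant-only cells of both lines, by 0.23 in HCT116 (adjusted p = 0.0146) and by 0.22 in DLD1 (adjusted p = 0.0170).

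Between the lines 4 of the 6 inhibitors were higher in HCT116 in each genotype, where 23.3% (wild-type-only) and 24.3% (mutant-only) of all genes were higher. CDKN1A was higher in HCT116 by 1.27 in wild-type-only and by 2.03 in mutant-only cells, and CDKN2A by 2.49 in both. CDKN2B was higher by 0.65 and 0.64 and CDKN1C by 0.24 and 0.32. CDKN1B was lower in HCT116 by 0.50 in wild-type-only cells, as most members were, and in mutant-only cells it differed by -0.03 (adjusted p = 0.664). CDKN2D did not pass in either genotype. The array reads RNA from the whole CDKN2A locus in 1 cluster, and no transcript form was separated here.

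**Figure D5:**
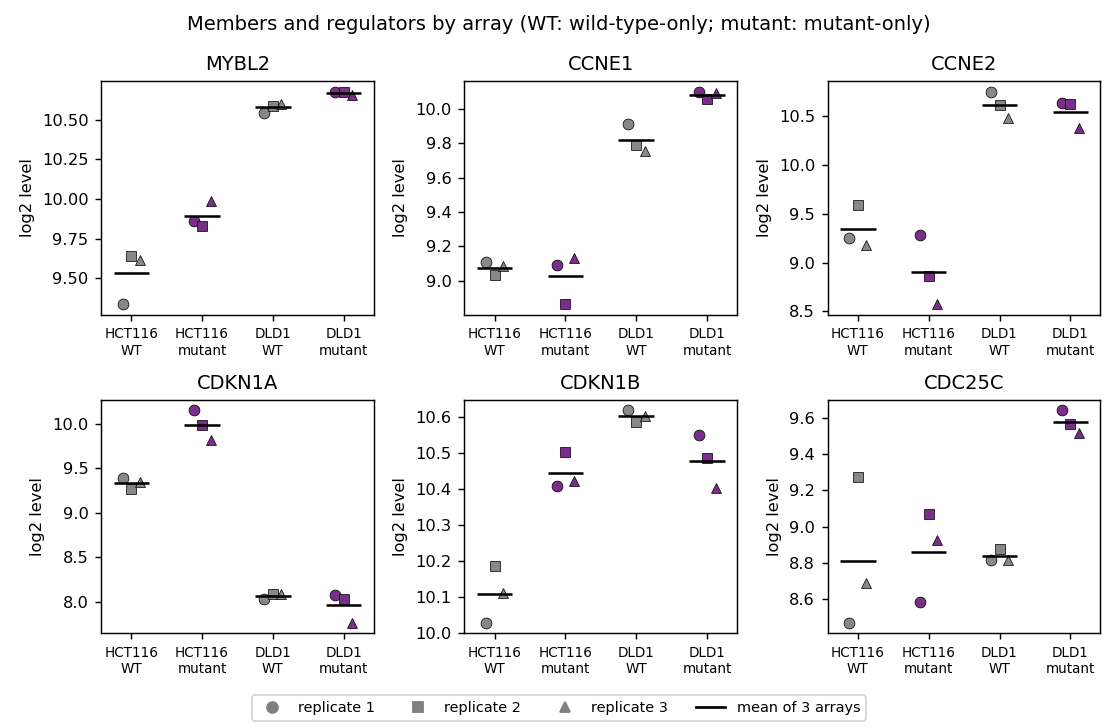
Log2 level (y axis, own scale in each panel) of the members MYBL2, CCNE1 and CCNE2 and of the regulators CDKN1A, CDKN1B and CDC25C in each array, by group (x axis); the shape gives the replicate number and the bar the mean of 3 arrays. CDKN1A and CDKN1B rise in HCT116 mutant-only cells, and CDC25C rises in DLD1 mutant-only cells from a mean of 8.84 to 9.58.

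Of 17 other cyclins, kinases and their phosphatases, 1 rose in HCT116 and 2 in DLD1, where 4.02% and 5.66% of all genes rose. CDC25B, a phosphatase that activates CDK1, rose in both lines, by 0.53 in HCT116 (adjusted p = 0.00431) and by 0.34 in DLD1 (adjusted p = 0.0414). CDC25C, a phosphatase of the same family, read 8.81, 8.88 and 8.82 in wild-type-only and 9.64, 9.57 and 9.52 in mutant-only DLD1 cells (change 0.74, SE 0.161, adjusted p = 0.0117). Between the lines 9 were lower and 5 higher in HCT116 wild-type-only cells, and 7 lower and 5 higher in mutant-only cells. About as many of all genes went each way (25.5% lower and 23.3% higher, and 26.3% and 24.3%). CDC25A, which frees CDK2 at the start of S phase, was lower in HCT116 by 1.56 and 1.88, PKMYT1 by 1.29 and 1.20 and WEE1 by 0.72 and 0.77. CCNG2 (0.70 and 0.97), CDC25B (0.66 and 0.85) and CDK7 (0.53 and 0.28) were higher.

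The retinoblastoma proteins, which hold E2F back, did not pass between genotypes. RB1 changed by -0.13 in HCT116 (adjusted p = 0.195) and 0.02 in DLD1, RBL1 (p107) by -0.05 and 0.01, and RBL2 (p130) by -0.18 (adjusted p = 0.207) and -0.10. In the list of 17 pocket protein, E2F and DREAM genes none passed in HCT116 with limma, where 6.16% of all genes did. There 3 of the list had an unadjusted p under 0.05. E2F5 alone was called in DLD1, where 8.77% of all genes were, and it rose from 9.41 to 9.79 (change 0.38, adjusted p = 0.000217). Its difference between the lines was -0.39 (adjusted p = 0.00263).

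Between the lines RB1 was lower in HCT116 by 0.52 and 0.67 and RBL1 by 1.06 and 1.11, while RBL2 did not pass. In this list of 17, 10 genes were lower and 3 higher in wild-type-only cells, where 25.5% and 23.3% of all genes were. In mutant-only cells 12 were lower and 2 higher, where 26.3% and 24.3% of all genes were. E2F8 (-1.74 and -1.39), E2F7 (-1.19 and -1.19) and LIN54 (-1.11 and -1.24) were lowest. TFDP2, a dimer partner of E2F factors, was higher by 0.68 and 0.70. Small rises were called for E2F6 (0.26) and E2F5 (0.14) in wild-type-only cells and for LIN37 (0.30) in mutant-only cells.

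Replication genes outside the 38 come next, and their counts were not tested between the lines. Of 41 measured, 10 rose and none fell in DLD1, where 5.66% of all genes rose. In HCT116 2 were called, where 6.16% of all genes were. TK1 rose by 0.34 (adjusted p = 0.0111) and SLBP, which binds histone messages, fell by 0.22 (adjusted p = 0.0145). Among the called genes the largest rises in DLD1 were those of GINS4 (0.35, adjusted p = 0.0419) and the polymerase subunits POLD3 (0.33, adjusted p = 0.00951) and POLE2 (0.32, adjusted p = 0.0117). Among the 38, the GINS2 subunit changed by 0.16 in DLD1 (adjusted p = 0.240). The GINS4 call was lost in several settings, for example without DLD1 wild-type-only replicate 3 (adjusted p = 0.157).

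Of 39 other mitosis genes 2 were called in HCT116, where 6.16% of all genes were. KIF18A rose by 0.66 in HCT116 (adjusted p = 0.0400) and CKAP2 fell by 0.55 (adjusted p = 0.00292). KIF18A arrays overlapped between the genotypes, and with HCT116 wild-type-only replicate 1 left out KIF18A did not pass (adjusted p = 0.159). None was called in DLD1 with limma, where 8.77% of all genes were, and 0 had an unadjusted p under 0.05 there.

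Between the lines both lists held more lower than higher genes, where 25.5% of all genes were lower in wild-type-only and 26.3% in mutant-only cells. Of the replication genes 36 were lower and 1, PRIM2, higher in HCT116 wild-type-only cells, with a median of -0.57, and 37 and 1 in mutant-only cells, with a median of -0.64. CLSPN (-1.97 and -2.25), POLD3 (-1.73 and -2.05) and POLA2 (-1.71 and -1.63) differed most. Of the mitosis genes 25 were lower in wild-type-only cells, with a median of -0.43, and 24 in mutant-only cells, with a median of -0.47. SMC2, a condensin subunit, differed most (-2.26 and -2.12), before MELK (-1.34 and -1.29). SMC4 (-1.28) came next in wild-type-only and CKAP2 (-0.93) in mutant-only cells. KIF18A was the mitosis gene higher in HCT116, by 0.54 in mutant-only cells.

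The promoter elements set these lists apart in the way they set the classes apart. The E2F core was present in 23 of 37 windows of the other replication genes (62.2%) and in 8 of 34 of the other mitosis genes (23.5%), and the CHR core in 5 of 37 (13.5%) and 30 of 34 (88.2%). Members with an E2F core had a median difference of -0.75 in wild-type-only cells and those without -0.70, and in mutant-only cells -0.78 and -0.63. Members with a CHR core had medians of -0.57 in both genotypes, and those without -0.76 and -0.75. These medians cover only members with a window, 12 with and 18 without an E2F core and 14 with and 16 without a CHR core. As 11 of the 14 with a CHR core are G2/M members, element and class cannot be told apart. The medians are a description, with no test.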

How the data were processed

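The deposited log2 values of 12 Affymetrix human gene 1.0 ST arrays were used. How the probes were background-corrected, summarised and normalized is not given in the sources used here. Brightness over background was not tested, and precision is limited by how many arrays there are. The authors' deposited tables hold a p-value and a fold change per cluster, made, per the file headers, with a one-way analysis of variance as a filter, a moderated test, a p cut-off of 0.05, no correction for multiple testing and a fold cut-off of 2. The group columns of both tables equal the means of the arrays within 1.33e-06 and 1e-06.

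Of 28869 transcript clusters 19310 had 1 gene symbol, 1752 several and 7807 none, and only the first were used. Where several clusters shared a gene (685 genes), the brightest on average was kept. One limma model (version 3.58.1, R 4.3.3) held all 12 arrays with 4 group means, and 5 contrasts were tested with 8 residual and 5.17 prior degrees of freedom. P-values were adjusted by Benjamini-Hochberg over 18377 genes, and the steps were checked on simulated data. Intervals are 95% intervals of the same model. Every per-sample column was used.

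The members and the lists were chosen with earlier results of these data known. All members are named. From each other list, every called gene was named where at most 6 were called in a contrast, and otherwise the 3 largest rises and falls, with CDKN1A, CDKN1B, RB1, RBL1 and RBL2 in any case. The 10 replication genes called in DLD1 are thus given by the largest 3. Listed genes without a cluster of their own were not analysed here. The gene whose alleles were targeted is not reported here.

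Labels give the same replicate numbers in all groups. After subtraction of the group means, same-numbered arrays of a line correlated by 0.129 to 0.462 (6 values), same-numbered arrays of different lines by 0.0657 to 0.471, and other pairs within a line by -0.321 to 0.170. Each same-line pair exceeded 0.1, so the number was used as a block within a line in an alternative fit, while the calls with all arrays use no block. Promoters come from a RefSeq table (GRCh38.p14) of 35116 windows. Alternatives were other normalizations, a filter on dim genes, array weights, the contrast's groups alone, the replicate block, the authors' call rule and leaving out each array.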

Additional observations from a re-analysis of the deposited data

Results flagged for a closer look

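The change from wild-type-only to mutant-only cells differed between HCT116 and DLD1 (limma, adjusted p under 0.05) for 7 genes of the other cell cycle lists. It differed for none of the 38 members and for 7.11% of all genes. By list these were 2 of 6 inhibitors, 1 of 17 pocket protein, E2F and DREAM genes, 3 of 41 replication genes and 1 of 39 mitosis genes. Of the 17 other cyclins and kinases 0 were called. For the inhibitors CDKN1A and CDKN1B the change was greater in HCT116, by 0.76 (adjusted p = 0.00230) and 0.46 (adjusted p = 0.00285) on the log2 scale. The difference, HCT116 change minus DLD1 change, was -0.39 for E2F5 (adjusted p = 0.00263), a partner of the pocket proteins, with mean levels of 9.41 and 9.79 in DLD1 and 9.56 and 9.54 in HCT116. It was -0.44 for POLE2 (adjusted p = 0.0156), a subunit of DNA polymerase epsilon, which rose in DLD1 (0.32) and changed by -0.12 in HCT116. It was -0.44 for DBF4 (adjusted p = 0.0283), the activator of the CDC7 kinase, whose arrays were dim at means of 5.64 to 6.41. It was -0.42 for TIPIN (adjusted p = 0.00632), a fork protection protein, which rose in DLD1 by 0.30. It was -0.60 for CKAP2 (adjusted p = 0.0132), a spindle protein, which fell in HCT116 by 0.55 and changed by 0.05 in DLD1.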

How the results depend on the processing

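The number of members called between genotypes in HCT116, 1 with all arrays, was 3 without dim genes, 3 after median centring, 0 with the HCT116 groups alone, 0 by the authors' rule (unadjusted p with a 2-fold change) and 1 to 4 when each array was left out in turn. With the replicate block, which pairs arrays of the same number, it was 5. In DLD1, again 1 with all arrays, it was 0 after quantile normalization, 2 with the DLD1 groups alone, 5 with array weights (25.6% of all genes called, against 8.77%), 0 by the authors' rule and 0 to 1 when each array was left out. Changes that differed between the lines numbered 0, with 1 under the replicate block and 0 to 1 when each array was left out. Over all genes the replicate block raised the share called to 9.84% in HCT116, 13.5% in DLD1 and 11.3% for the difference. It moved no other count of members by over 1.5 times, with 34 and 35 members called between the lines in wild-type-only and mutant-only cells. Members called between the lines numbered 34 in wild-type-only cells, with 10 by the authors' rule and 27 to 35 when each array was left out, and 33 in mutant-only cells, with 11 and 28 to 35. The mean G1/S difference between the lines in mutant-only cells was -0.87, and -0.94 after median centring. The mean G1/S change in DLD1 was 0.06, and 0.024 after quantile normalization, 0.11 after median centring and 0.027 after cyclic loess. Why these settings move the values was not tested. Without HCT116 wild-type-only replicate 2, MYBL2, MCM5, MCM7 and BIRC5 were called in HCT116. The mean G2/M change in HCT116 lay between -0.04 and 0.23 when each array was left out. Of 302 single-gene results that were followed (members called in any setting and other list genes called with all arrays), none changed sign while called. Limiting the promoter windows to the bases before the start lowered the G1/S count with an E2F core to 10, that of the other replication genes from 23 to 16 and the count of other mitosis genes with a CHR core from 30 to 23. With 3 arrays a group, a small change can be missed. For the G2/M members this holds in both lines, since the model gives each gene 1 spread over all groups.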
